A study of Homo sapiens with 6 samples.

Results

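MZT1 and the other genes of the gamma-tubulin ring complex were followed in U251 cells after knockdown of TRAF2. The members were 10 named genes out of the 23002 genes with a value, namely MZT1, MZT2A, MZT2B, TUBG1, TUBGCP2, TUBGCP3, TUBGCP4, TUBGCP5, TUBGCP6 and NEDD1. They were selected for the rise of MZT1 in sh-TRAF2 relative to the other subunits in these same samples, so that their levels and fold changes are given below as a description, without p-values, and the counts of members past a threshold are not evidence. The gene annotation deposited with the values placed 9 of the 10 in the gamma-tubulin complex, all except NEDD1.

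U251 is an established human glioblastoma cell line. RNA was sequenced from 3 samples of cells carrying a non-targeting control hairpin (sh-NC) and from 3 samples carrying a short hairpin RNA against TRAF2 (sh-TRAF2), an adaptor protein of tumour necrosis factor receptor signalling. Both hairpins were delivered by lentivirus and both lines were stable, with puromycin used for selection in the study, and no other treatment is named for either group. The study holds 2 TRAF2 hairpins and does not say which was sequenced, the labels do not say whether the lines were clones, and nothing says that the replicates came from separate cultures, so the p-values below measure only the spread between these samples.

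The gamma-tubulin ring complex is the template on which cells start new microtubules. Gamma-tubulin binds to the GCP proteins (gamma-tubulin complex proteins), which are arranged as a helical ring whose exposed gamma-tubulins receive the first alpha- and beta-tubulin dimers. MZT1 and the MZT2 proteins are small partners that bind the N-terminal parts of GCP proteins, and NEDD1 carries the complex to centrosomes and spindles. In dividing cells, tumour lines among them, the complex is recruited to the centrosome in larger amounts as mitosis begins.

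Levels are given as FPKM (fragments per kilobase of gene length and per fixed number of sequenced fragments), a scale on which levels of different genes can be set side by side. The reads behind each value were recovered from the steps of the FPKM values and came to between 33999558 and 36823562 per sample. Log2 values correlated across genes at 0.9928 to 0.995 within groups and at 0.9794 to 0.9845 between groups. TRAF2, read first as a check of the labels, stood at 15.1, 18.4 and 15.3 FPKM in sh-NC and at 3.26, 3.22 and 3.33 FPKM in sh-TRAF2, with no overlap. TRAF2 thus fell by 2.27 on the log2 scale with a standard error of 0.079 (limma, two-sided, adjusted p = 1.16e-06). An exact two-sided permutation test could not go below p = 0.1 with 3 samples a group, and none was run. The glioma line markers VIM, CD44 and SOX2 were present in every sample, GFAP did not exceed 1.62 FPKM and S100B was at 0 in 5 of 6 samples. NES stood at 5.35 ± 0.53 FPKM in sh-NC and 11.7 ± 0.23 FPKM in sh-TRAF2 (SD, n = 3). GFAP went from 0.47 ± 0.18 to 1.18 ± 0.55 FPKM, with overlapping samples (SD, n = 3). By limma 3 of the 5 line markers tested (VIM, NES and GFAP) were higher at an adjusted p under 0.05. Over all genes tested 23.7% were higher. Markers of blood, vessel, epithelial, neuronal and oligodendrocyte cells reached at most 0.0818 FPKM, except CD68 at about the same level in both groups (16.1 ± 0.36 and 15.9 ± 1.44 FPKM; SD, n = 3), and CD3E was not analysed here.

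MZT1, the small subunit named first, was the member whose level differed most between the groups. Its level was 7.34, 5.91 and 7.79 FPKM in the 3 sh-NC samples (replicates 1, 2 and 3 in this order, as in all lists of values here). The sh-TRAF2 samples reached 27.2, 23.3 and 26.0 FPKM. The lowest sh-TRAF2 sample therefore lay far above the highest sh-NC sample. Behind these values were 583, 472 and 646 reads per sh-NC sample and 2116, 1781 and 2033 reads per sh-TRAF2 sample. The mean went from 7.01 ± 0.98 to 25.5 ± 2.03 FPKM (SD, n = 3), a ratio of 3.63. On the log2(FPKM + 0.1) scale the difference was 1.85 (standard error 0.10). In bulk samples a change in the number of cells that express a gene and a change in RNA per cell cannot be told apart.

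MZT2A and MZT2B, a pair of near-identical small subunits that bind GCP2, showed no such difference. MZT2A stood at 10.3, 9.83 and 10.5 FPKM in sh-NC and at 10.1, 10.3 and 10.6 FPKM in sh-TRAF2. MZT2B was by far the most abundant member, at 146, 148 and 142 FPKM in sh-NC and 142, 144 and 143 FPKM in sh-TRAF2. The groups overlapped for both genes, and their log2 fold changes were 0.013 (standard error 0.049) and -0.018 (standard error 0.030). Reads of the pair cannot be fully separated by sequence, since 20.8% of the 50-base words of MZT2B transcripts also occur in MZT2A. The ratio of MZT2B to MZT2A reads was 3.46 ± 0.19 in sh-NC and 3.38 ± 0.078 in sh-TRAF2 (SD, n = 3). In contrast, MZT1 transcripts shared 0 of their 2239 50-base words with any other gene.

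TUBG1 encodes gamma-tubulin itself. It was at 48.2, 45.5 and 43.7 FPKM in sh-NC and at 60.9, 61.7 and 62.2 FPKM in sh-TRAF2. Every sh-TRAF2 sample lay above every sh-NC sample. The mean went from 45.8 ± 2.26 to 61.6 ± 0.63 FPKM (SD, n = 3), a ratio of 1.35 and a log2 fold change of 0.43 (standard error 0.043). Of its 50-base words 18.2% also occur in TUBG2, the second gamma-tubulin gene, which was lower in every sample, at 5.18 ± 0.34 FPKM in sh-NC and 5.78 ± 0.83 FPKM in sh-TRAF2 (SD, n = 3; adjusted p = 0.275 from limma).

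The GCP subunits did not move together. TUBGCP2 and TUBGCP3 encode the subunits that form the core gamma-tubulin small complex with gamma-tubulin, from which most of the ring is built. TUBGCP2 was at 22.7, 25.1 and 25.4 FPKM in sh-NC and at 24.9, 24.6 and 24.3 FPKM in sh-TRAF2, with a log2 fold change of 0.012 (standard error 0.051). TUBGCP3 was at 3.03, 3.07 and 3.46 FPKM in sh-NC and at 2.64, 2.78 and 2.85 FPKM in sh-TRAF2. It was the only member whose sh-TRAF2 samples all lay below the sh-NC samples, with a mean lower by 13.4% and a log2 fold change of -0.20 (standard error 0.080). The nearest TUBGCP3 samples of the groups, 2.85 and 3.03 FPKM, were closer to each other than the lowest and highest of either group.

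TUBGCP4, TUBGCP5 and TUBGCP6 encode the subunits that complete the ring. TUBGCP4 stood at 4.54, 5.30 and 4.87 FPKM in sh-NC and at 6.76, 6.61 and 6.25 FPKM in sh-TRAF2, separated groups with a log2 fold change of 0.41 (standard error 0.071). For TUBGCP6 the values were 2.68, 2.75 and 2.74 FPKM in sh-NC and 3.13, 3.65 and 3.79 FPKM in sh-TRAF2, again separated, with a log2 fold change of 0.36 (standard error 0.085). The ratios of the means were 1.33 and 1.29. TUBGCP5 overlapped between groups, at 5.77, 5.04 and 5.79 FPKM in sh-NC and 5.50, 5.61 and 5.82 FPKM in sh-TRAF2, and its log2 fold change was 0.031 (standard error 0.070). NEDD1, the targeting subunit, also overlapped, at 13.7, 13.2 and 14.3 FPKM in sh-NC and 14.4, 12.6 and 13.5 FPKM in sh-TRAF2 (log2 fold change -0.030, standard error 0.060).

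**Figure D1:**
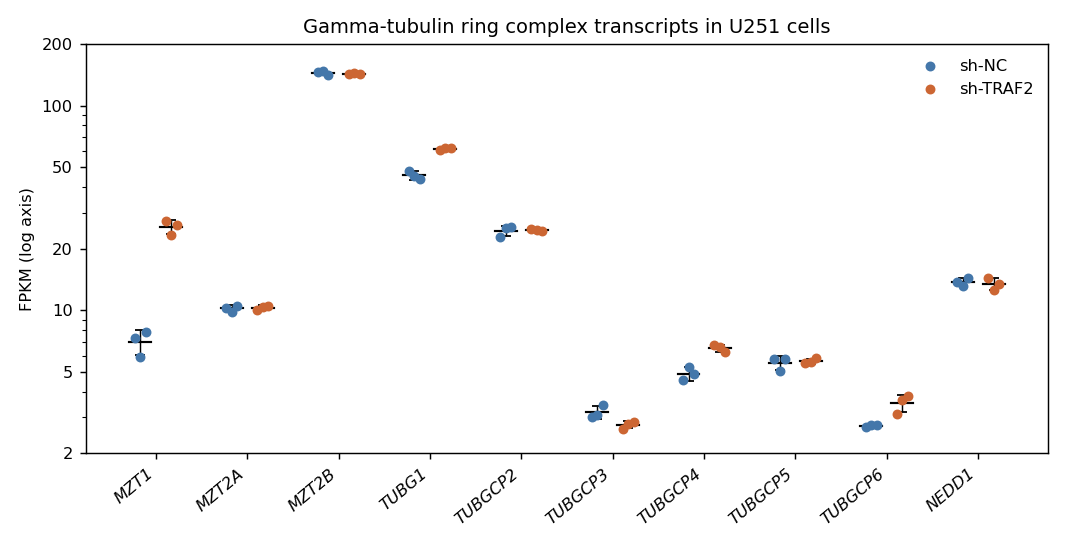
FPKM of the 10 complex genes in each sample, on a log axis, with sh-NC in blue and sh-TRAF2 in orange (points, samples; line and bar, mean ± SD, n = 3). MZT1 goes from a mean of 7.01 to 25.5 FPKM, TUBG1, TUBGCP4 and TUBGCP6 are separated by smaller steps, and the remaining genes overlap, except TUBGCP3, which is lower in sh-TRAF2.

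Set against each other, 4 of the 10 members had every sh-TRAF2 sample above every sh-NC sample (MZT1, TUBG1, TUBGCP4 and TUBGCP6), 1 had them below (TUBGCP3) and 5 overlapped. Over all 11870 genes tested, 29.0% were separated upwards and 26.5% downwards, 55.5% in all. In the limma fit over all genes 4 members lay above 0 and 0 below it at an adjusted p under 0.05, where the shares over all genes tested were 23.7% and 20.9%, or 44.6% together. MZT1 alone also lay past an absolute log2 fold change of 1, as did 0.986% of all genes upwards, 0.733% downwards and 1.72% in either direction. All 10 members passed the filter of a mean of at least 0.5 FPKM. Since the members were picked on this contrast, nothing is read from these counts.

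The median log2 fold change of the other 9 members was 0.013, beside 0.019 over all genes tested, and they ranged from -0.20 (TUBGCP3) to 0.43 (TUBG1). MZT1 stood 1.84 above that median and 1.42 above TUBG1, the next member. The spread between replicates, pooled over both groups on the log2 scale, was also widest for MZT1 at an SD of 0.17, and narrowest for MZT2B at 0.023. The gap between MZT1 and the other members is what selected them, so it is given without a reading against this spread.

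**Figure D2:**
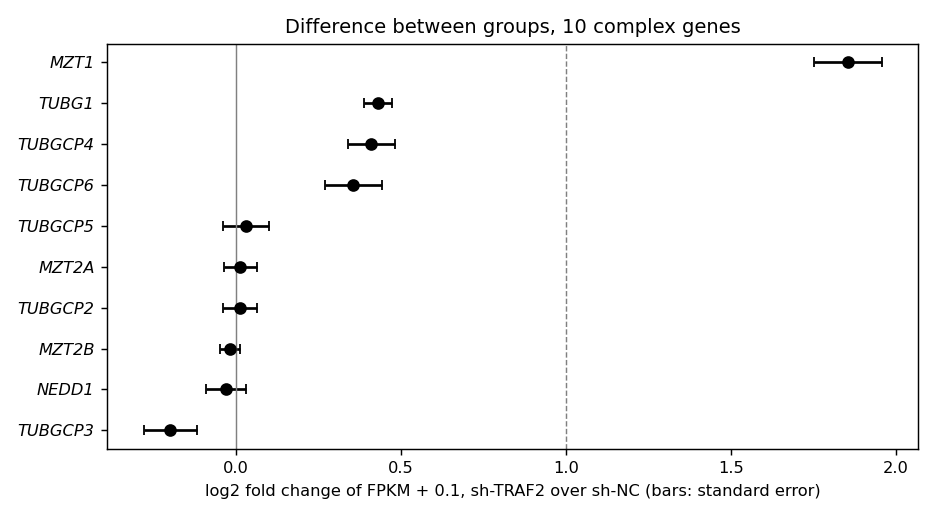
Log2 fold change of sh-TRAF2 over sh-NC for the 10 complex genes (points; bars, standard error), on the log2(FPKM + 0.1) scale, with a dashed line at 1. MZT1 lies at 1.85, and the other 9 genes lie between -0.20 and 0.43.

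The order of transcript levels changed mainly through MZT1. In sh-NC the order by mean FPKM was MZT2B (145), TUBG1 (45.8), TUBGCP2 (24.4), NEDD1 (13.8), MZT2A (10.2), MZT1 (7.01), TUBGCP5 (5.53), TUBGCP4 (4.90), TUBGCP3 (3.18) and TUBGCP6 (2.72). Within it, the samples of TUBGCP5 and TUBGCP4 overlapped and all other neighbours were separate. In sh-TRAF2 MZT1 moved from place 6 to place 3, level with TUBGCP2 (25.5 and 24.6 FPKM, with overlapping samples). TUBGCP4 passed TUBGCP5, and TUBGCP6 passed TUBGCP3, while the other places kept their relative order. These levels depend on the gene length used for FPKM. The length implied for MZT2B was 786 bases against 1815 bases of annotated exons, that for TUBGCP2 was 4050 against 7697, that for TUBGCP4 was 6955 against 11171 and that for MZT2A was 3226 against 4093, whereas for MZT1 the values were close (2252 and 2299 bases). Places that involve these genes, such as that of MZT1 beside TUBGCP2, could differ with another choice of length.

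The relative amounts of transcript changed accordingly. The ratio of MZT1 to TUBG1 FPKM was 0.152, 0.130 and 0.178 in sh-NC and 0.447, 0.377 and 0.418 in sh-TRAF2. The ratio of MZT1 to NEDD1 went from 0.51 ± 0.053 to 1.89 ± 0.041 (SD, n = 3), from below 1 in every sh-NC sample to above 1 in every sh-TRAF2 sample. TUBG1 over TUBGCP2 went from 1.88 ± 0.21 to 2.51 ± 0.055 (SD, n = 3). These ratios are of transcripts, and protein amounts were not measured in these data.

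MZT1 lies on the minus strand of chromosome 13, at chr13:72708357-72727687 in GENCODE release 29 (GRCh38), and no other annotated gene overlaps it. The build behind the deposited values is not given in the sources used here, so these positions describe the annotation and not the files. BORA, which encodes an activator of the mitotic kinase Aurora A, starts next to it and runs the other way (chr13:72727749-72756198, plus strand). The RefSeq start sites of the pair are 294 bases apart on GRCh38.p14, at 72727629 for MZT1 and 72727923 for BORA. The GENCODE starts lie closer together, at 72727687 and 72727749. The windows below follow RefSeq, and the place of a site relative to a start depends on this choice. Their promoter windows, each from 250 bases before the start to 50 after it, share 207 bases (chr13:72727673-72727879). The sequences are printed because the genes that share them differed in opposite directions. Capitals mark CCAAT boxes, bound by the factor NF-Y, and the cell cycle genes homology region (CHR), an element known from promoters of mitotic genes, in its usual form TTTGAA and in the variant form, a palindrome, TTCGAA. Both strands were searched, so a site on the other strand appears as its complement, and each window is written 5′ to 3′ on the strand of its gene.

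MZT1 promoter, GRCh38.p14 chr13:72727580-72727879, minus strand: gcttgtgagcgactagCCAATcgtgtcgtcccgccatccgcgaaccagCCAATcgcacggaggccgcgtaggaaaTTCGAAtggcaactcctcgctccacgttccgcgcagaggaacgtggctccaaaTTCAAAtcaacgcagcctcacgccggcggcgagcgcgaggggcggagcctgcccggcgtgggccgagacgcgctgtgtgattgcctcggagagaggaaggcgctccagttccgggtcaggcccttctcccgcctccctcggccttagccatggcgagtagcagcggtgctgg
BORA promoter, GRCh38.p14 chr13:72727673-72727972, plus strand: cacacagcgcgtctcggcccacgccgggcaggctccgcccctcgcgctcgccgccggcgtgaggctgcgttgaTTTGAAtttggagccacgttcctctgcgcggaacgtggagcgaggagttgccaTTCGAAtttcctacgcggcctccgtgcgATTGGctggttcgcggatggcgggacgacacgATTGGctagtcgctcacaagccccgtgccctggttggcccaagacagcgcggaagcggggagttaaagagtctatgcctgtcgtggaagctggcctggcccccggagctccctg

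Each window held 2 CCAAT boxes, 1 usual CHR and 1 variant CHR, counted on both strands and without overlap between motifs. All 4 sites lie in the shared stretch, so they are the same bases read from either gene. In the MZT1 window the CCAAT boxes began 234 and 202 bases before the RefSeq start, the variant CHR 175 and the usual CHR 122 bases before it. By the GENCODE positions the usual CHR spans the start of BORA, and the other sites lie within the BORA gene. Neither window held the AP-1 core TGANTCA or, as a core of the interferon-stimulated response element, the letters TTTCNNTTT. Among 9608 promoters of tested genes a CCAAT box occurred in 37.6%, the usual CHR in 9.88%, the variant CHR in 1.79%, the AP-1 core in 4.73% and the interferon core in 7.32%. Both CHR forms were found in 26 promoters (0.271%), and together with 2 CCAAT boxes in 10 promoters (0.104%), those of MZT1, BORA, CNOT10, ARL6IP5, ZGRF1, TAOK3, CCNF, SHCBP1, DCAF7 and INTS6L.

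No other member with a promoter entry held this arrangement, which was rare among all tested genes (0.104%), so its absence does not set them apart. A promoter entry was found for 9 of the 10 members, all but TUBGCP4, and 5 of the 9 held a CCAAT box (MZT1, MZT2A, MZT2B, TUBG1 and TUBGCP5). A CHR of either form was found in the MZT1 window alone, 1 of 9, beside 13 of 19 windows of a list of mitotic genes and 11.4% of all windows of tested genes. The windows of MZT2A and MZT2B matched at 278 of 300 bases (92.7%). A match of letters is a description and does not show that a factor binds there.

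Despite the shared stretch, BORA differed in the direction opposite to MZT1. BORA stood at 7.96, 7.80 and 9.12 FPKM in sh-NC and at 6.64, 5.82 and 6.34 FPKM in sh-TRAF2. Its groups did not overlap and it fell by 0.40 on the log2 scale (standard error 0.077, adjusted p = 0.00382 from limma). The ratio of MZT1 to BORA FPKM went from 0.84 ± 0.082 to 4.07 ± 0.062 (SD, n = 3), with sh-NC at 0.922, 0.758 and 0.854 and sh-TRAF2 at 4.11, 3.995 and 4.10. Among 806 pairs of tested genes that run apart from overlapping promoter windows, the absolute difference in log2 fold change had a median of 0.251 and a 95th percentile of 0.800. The MZT1 and BORA pair had the largest, 2.25, ahead of 1.79 for the next pair, a place given without a test because MZT1 was selected for its change.

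**Figure D3:**
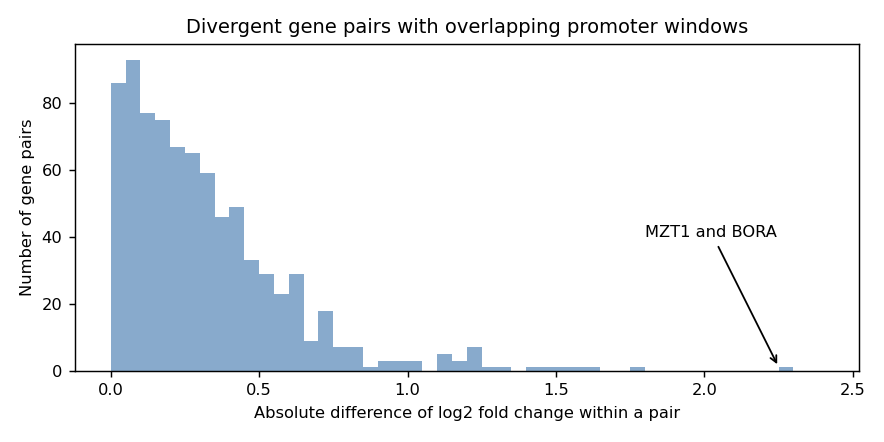
Number of divergent gene pairs with overlapping promoter windows, by the absolute difference of log2 fold change (sh-TRAF2 over sh-NC) within the pair. The median over 806 pairs is 0.251, and the pair of MZT1 and BORA lies at 2.25, right of all other pairs.

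The genes further along chromosome 13 showed smaller differences than MZT1. DIS3, the catalytic subunit of the nuclear exosome, and PIBF1, a centrosomal protein, also run apart from a common start region. DIS3 rose from 8.91 ± 0.45 to 10.8 ± 0.38 FPKM and PIBF1 from 2.89 ± 0.16 to 3.80 ± 0.079 FPKM (SD, n = 3), with log2 fold changes of 0.28 and 0.39 (adjusted p = 0.00472 and 0.00261 from limma). The transcription factor genes KLF5 and KLF12 did not pass the test (log2 fold change 0.082 and -0.097, adjusted p = 0.374 and 0.424 from limma), although KLF5 passed without sh-TRAF2 replicate 2 (0.17, adjusted p = 0.0273). Of the 5 neighbours, 2 were higher and 1 was lower. BORA and DIS3 overlap on opposite strands, as do DIS3 and PIBF1, and the use of strand in counting is not stated, so reads in the overlaps are uncertain.

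**Figure D4:**
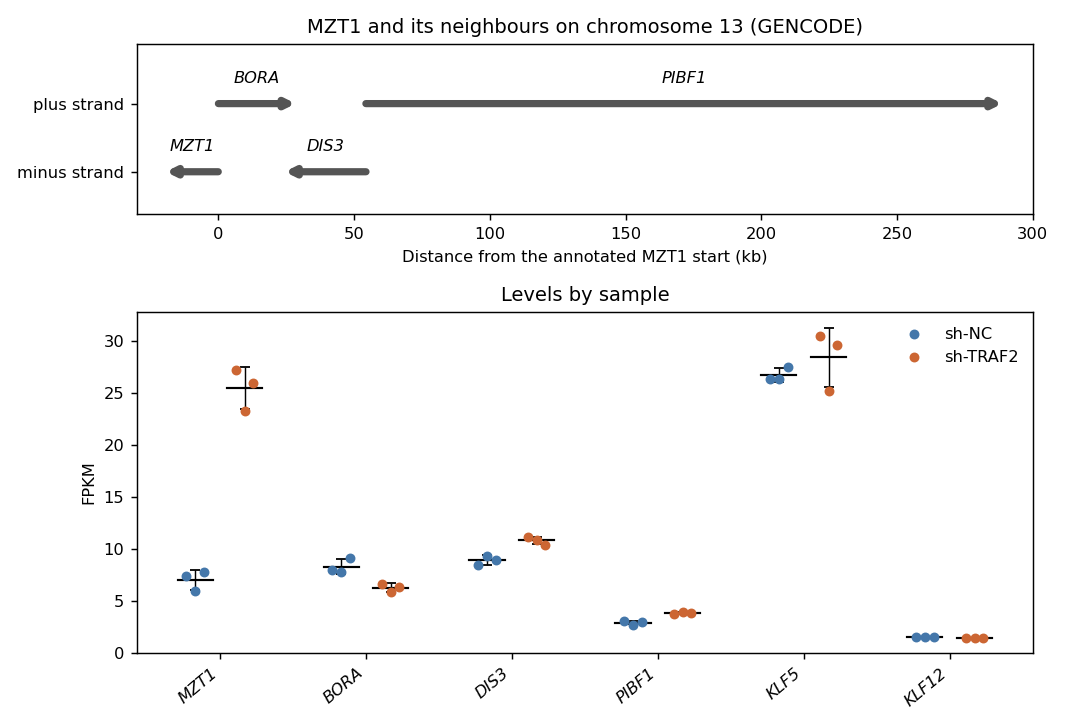
Top, MZT1, BORA, DIS3 and PIBF1 by strand and distance from the annotated MZT1 start in kb (arrows point in the direction of transcription; KLF5 and KLF12 are not drawn there). Bottom, FPKM per sample of MZT1 and its 5 neighbours (line and bar, mean ± SD, n = 3): MZT1 goes from 7.01 to 25.5 FPKM, while BORA goes from 8.29 to 6.27.

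Overlapping annotation also touches the members. MZT2A overlaps TUBA3D, MZT2B overlaps SMPD4, TUBG1 overlaps RETREG3 and TUBGCP4 overlaps TP53BP1 and ZSCAN29, each on the opposite strand, and TUBGCP2 overlaps genes on both strands. For TUBG1 and TUBGCP4, whose groups were separated, reads in the overlap are therefore uncertain, since the use of strand in counting is not stated. MZT1, TUBGCP3, TUBGCP5, TUBGCP6 and NEDD1 have no annotated overlap.

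The members' transcripts were also searched for the 21-base targets of the TRAF2 hairpins. The longest run shared with either target was 6 or 7 bases in MZT1 transcripts and 9 bases at most in any member (TUBGCP5), against 21 bases in TRAF2. The length that unrelated transcripts reach was not computed. A 7-base stretch of 1 of the targets, ATTCCAC, was counted in the longest 3′ untranslated region of each gene. Among the members TUBGCP4 held 1 copy and the others, MZT1 included, held 0, while 11.6% of 10610 genes carried it. Other shorter matches were not assessed, so any direct effect of the hairpin on the members was not tested.

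Genes with values like those of MZT1 were looked for among all genes tested. Nearness was measured as the Euclidean distance between the 6 log2(FPKM + 0.1) values of each gene, taken relative to its own sh-NC mean, among 11870 genes, and therefore depends mostly on the size of the difference between groups. The 5 nearest were ALG5, an enzyme of glycan assembly on the endoplasmic reticulum (distance 0.377), FOS, a subunit of AP-1 (0.380), IL1B, an inflammatory cytokine (0.511), TFRC, the transferrin receptor (0.565), and ACTG2, a smooth muscle actin (0.635). ALG5 stood at 6.85, 6.48 and 6.37 FPKM in sh-NC and 23.5, 21.7 and 21.4 FPKM in sh-TRAF2. FOS and ACTG2 rest on only 19 to 27 and 20 to 24 reads per sh-NC sample. Their means were low, at 0.29 and 0.41 FPKM in sh-NC and 1.36 and 1.66 FPKM in sh-TRAF2. The ratios of these means were 4.66 and 4.04. The added 0.1 shrinks such differences on the log2 scale, so the nearness of these 2 genes depends in part on it. The nearest members were TUBG1 at distance 2.49, place 1034 of the tested genes, TUBGCP4 at place 1159 and TUBGCP6 at place 1459, places that follow from the selection of MZT1 for its rise relative to them.

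Genes that work with the complex were taken as 6 lists of 83 genes in all, none a member, of which 79 were tested. By limma 38 were higher at an adjusted p under 0.05, 7 were lower and 34 did not pass, against 23.7% higher and 20.9% lower over all genes. The count of 7 depends on the fit. It fell to between 2 and 5 whichever sample was left out, in fits with fewer samples. The lowest, 2, came without sh-NC replicate 1. With all samples kept, the alternatives gave 5 to 8. No gene of the lists passed an absolute log2 fold change of 1, and their median of 0.17 compares with 0.019 over all genes. The largest was STMN1 at 0.89. MZT1 lay above every one of them, but it was selected for its rise, so nothing is read from its place.

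Among 11 tested anchors and activators, which attach the complex to centrosomes or switch it on, 6 were higher and 0 lower (median log2 fold change 0.19). NME7, a kinase that binds the ring, was at 23.3, 21.9 and 21.4 FPKM in sh-NC and 30.2, 28.7 and 31.3 FPKM in sh-TRAF2 (log2 fold change 0.44, adjusted p = 0.000272 from limma). NIN, which anchors microtubules at the centriole, rose by 0.51 and CDK5RAP2, whose short motif activates the complex, by 0.31 (adjusted p = 0.00114 and 0.00172 from limma). These steps were of the size of that of TUBG1. Augmin, the complex that brings gamma-tubulin to existing microtubules, had 3 higher and 1 lower of 8 subunits with a median of -0.077, so that count and median differed in direction. HAUS8 rose by 0.43 and HAUS2 by 0.17, while HAUS1 fell by 0.45 (adjusted p = 0.00309, 0.0234 and 0.03 from limma).

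Of 13 tested tubulins 6 were higher and 1 was lower (median 0.23). TUBB3 rose by 0.45, TUBB6 by 0.32 and TUBB by 0.23 on the log2 scale (adjusted p = 0.000152, 0.000353 and 0.000318 from limma), and reads of such closely related genes may be shared among them. Of 13 tested genes that act on microtubule ends or sever them, 4 were higher and 5 lower (median 0.11). STMN1, which sequesters tubulin dimers, rose from 67.1 ± 7.65 to 124 ± 8.91 FPKM (SD, n = 3; log2 fold change 0.89, adjusted p = 0.000114 from limma). CAMSAP1 rose by 0.46 and CAMSAP2 fell by 0.20, both of them proteins of microtubule minus ends (adjusted p = 0.000277 and 0.00802 from limma). In centriole assembly 1 of 12 genes was higher (CNTROB, log2 fold change 0.23, adjusted p = 0.01 from limma) and 0 lower, with a median of 0.11. STIL and CETN3 came next at 0.13 and 0.26 and did not pass (adjusted p = 0.0544 and 0.0635 from limma).

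The mitotic cycle list stood beside MZT1 with 18 of 22 genes higher, 0 lower and a median of 0.32. BIRC5, the inhibitor-of-apoptosis subunit of the chromosomal passenger complex, rose by 0.81, PTTG1, the securin that restrains sister separation, by 0.63 and UBE2C, a ubiquitin-conjugating enzyme of mitotic exit, by 0.56 (adjusted p = 7.96e-06, 2.21e-05 and 1.23e-05 from limma). MKI67, CCNB1, CCNA2 and KIF11 did not pass the test. TUBG1, TUBGCP4 and TUBGCP6 lay within the range of this list and MZT1, selected for its rise, above it. Whether the share of cells in mitosis had a part in the members' values was not tested.

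**Figure D5:**
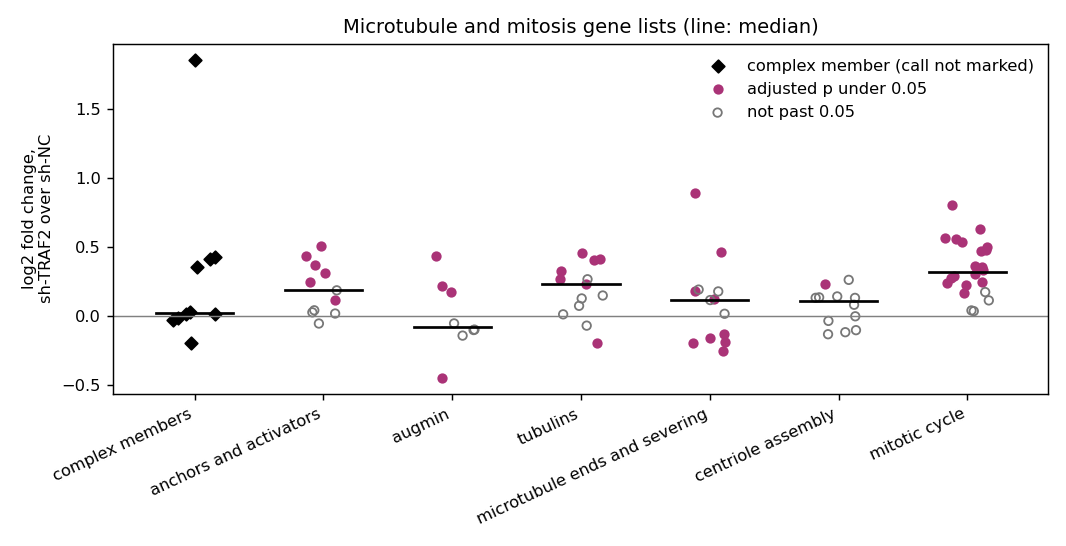
Log2 fold change (sh-TRAF2 over sh-NC) of the complex members and of 6 gene lists (diamonds, members, whose calls are not marked because they were selected on this contrast; for list genes, filled points, adjusted p under 0.05 by limma, and open points, not past it; line, median of the list). MZT1, selected for its rise, lies at 1.85, above all list genes. The mitotic cycle list has the highest median, 0.32.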

How the data were processed

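Messenger RNA of 3 sh-NC and 3 sh-TRAF2 samples of U251 cells was measured by sequencing. The authors deposited 1 table of FPKM values per gene and sample, made by OE Biotech from libraries of the VAHTS Universal V6 kit. The submitters' processing notes name HISAT2, HTSeq, R 3.2.0 and DESeq2 without a role. The genome build, annotation and strand setting are not given in the sources used here, and an error in gene length would shift levels but not fold changes. All 6 columns were assigned to a sample, and groups were taken from the labels.

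Values were taken as log2(FPKM + 0.1), a scale that shrinks fold changes where FPKM is low. Genes with a mean FPKM under 0.5 were left out, and the 11870 others were compared with limma 3.58.1 (R 4.3.3; linear fit, moderated with a mean-variance trend; two-sided p, Benjamini-Hochberg adjusted over all of them). Read numbers were taken as the smallest set of integers matching the FPKM steps, for 20359 of 23002 genes; the other 2643 have reads in 1 sample only. The fit was tested on simulated data with 200 of 11870 genes changed by 1.5 on the log2 scale, of which 100% were called together with 1 unchanged gene. A call there needed both an adjusted p under 0.05 and an absolute log2 fold change above 1. The simulation gave every gene the same dispersion. Calls by adjusted p alone, and changes smaller than 1.5, were not tested in it. Simulated reads came out exactly for 98.5% of 1976 genes.

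The members, lists and tests were chosen with earlier results of these data known. Named were the members, TRAF2, the 3 genes of each pathway list with the smallest adjusted p, the 5 chromosome neighbours of MZT1 and the 5 genes nearest to it. TUBG2, NES, GFAP and the genes sharing the promoter motifs, and genes given as not passing, were named after their values were seen. NINL, TUBA8, TUBB4A and CAMSAP3 were below the filter. Tried as alternatives were pseudocounts of 0.01 and 1, the filter dropped or set at 1 FPKM, TPM scaling, quantile normalization, a block for replicate number, limma without the trend, limma-voom on recovered reads (mean of 10 or more) and leaving out single samples. Gene positions and transcripts came from GENCODE release 29 and promoters from RefSeq (GRCh38.p14). Python 3.11.15, numpy 2.4.6, pandas 2.3.3 and matplotlib 3.10.9 were used.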

Additional observations from a re-analysis of the deposited data

How the results depend on the processing

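Over 15 alternatives the log2 fold change of MZT1 stayed between 1.73 and 1.93, its distance above the median of the other members between 1.72 and 1.90, and that of TRAF2 between -2.33 and -2.01. These ranges for members describe the arithmetic only, since the members were selected on this contrast. The count of members lower at an adjusted p under 0.05 moved from 0 to 1 under quantile normalization (MZT2B, log2 fold change -0.080); the cause was not tested, and nothing is read from counts of members. Pathway genes numbered 32 to 40 higher. Those lower went from 7 to between 2 and 5 with 1 sample left out (2 without sh-NC replicate 1; of the sh-TRAF2 samples, 4 when replicate 1 was left out and 3 for replicate 2 or 3), fits with fewer samples. With the replicate number as a block, MZT1 stood at 1.85 (standard error 0.058), 40 pathway genes were higher and 5 lower, and the block changed no call of a member or neighbour. Deviations of same-numbered samples correlated at -0.0812, 0.0722 and 0.0728, and those of other pairs of samples at -0.141 to 0.0673. With so few samples these values cannot decide whether the numbers pair the samples. Rescaling to TPM and quantile normalization moved the median of all genes from 0.019 to 0.0056 and -0.00036. No member rests on fewer than 472 reads in a sample.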
